A study of Mus musculus with 6 samples.

Results

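The genes of MHC class I antigen presentation and 3 ligands of immune checkpoint receptors were examined in cultured pancreatic cancer cells with reduced Brca2. The members were chosen by symbol from the table of raw counts: the class I heavy chains H2-K1 and H2-D1, the light chain B2m, the peptide transporter subunits Tap1 and Tap2, the loading factor Tapbp, the trimming peptidase Erap1, and the checkpoint ligands Cd274 (PD-L1), Pvr (CD155) and Cd47. Of these 10 genes, 8 were analysed here, among 10616 genes in all. Tap1 and Tap2 were not analysed here. The line, KPC, comes from mouse pancreatic ductal adenocarcinoma, and 3 libraries were made from cells with an shRNA against Brca2 (shBrca2) and 3 from cells with a non-targeting shRNA (shControl). Both shRNAs were delivered by a pLKO.1 lentivirus with puromycin selection, so the controls carried vector and selection too. Brca2 was lowered rather than deleted, and the sources used here give neither the number of hairpins nor whether the lines were clonal. For each library, 10000 cells that excluded propidium iodide, a dye that enters dead cells, were sorted from culture, and 3' end RNA-seq was made by a variation of MARS-seq.

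MHC class I molecules display peptides from inside the cell to CD8+ T cells. A heavy chain pairs with β2-microglobulin in the endoplasmic reticulum, where the TAP transporter delivers peptides, tapasin bridges TAP to the empty class I molecule and ERAP1 trims peptides to length. Class I genes and Cd274 are known to be inducible by interferon-γ. PD-L1 and CD155 engage the T cell receptors PD-1 and TIGIT, and CD47 engages SIRPα on macrophages as a signal against phagocytosis.

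The promoters of the 2 class I heavy chains and of B2m are shown because these 3 genes share known elements of class I control, while H2-K1 and H2-D1 lay on opposite sides of 0 in the comparison. RefSeq promoter windows, 250 bases before to 50 after the annotated start on GRCm38.p6, were found for 7 of the 8 analysed members. The promoter reference used here held no window for Pvr. The letters searched on both strands were a kappaB-like run (3 G, any 5 bases, 2 C), TTTCNNTT (part of an interferon-stimulated response element), TGACG (CRE-like) and CCAAT. In the lines below, capitals mark matches to the first 3 of these, in either orientation, and overlapping kappaB-like matches run together.
H2-K1, chr17:34000380-34000476, minus strand: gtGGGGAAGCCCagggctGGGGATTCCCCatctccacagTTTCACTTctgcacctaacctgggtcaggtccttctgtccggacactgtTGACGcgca
H2-D1, chr17:35262905-35263001, plus strand: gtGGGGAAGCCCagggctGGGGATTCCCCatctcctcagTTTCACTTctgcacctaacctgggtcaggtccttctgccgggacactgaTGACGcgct
B2m, chr2:122147548-122147617, plus strand: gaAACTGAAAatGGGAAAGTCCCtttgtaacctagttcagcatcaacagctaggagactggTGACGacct

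The H2-K1 and H2-D1 stretches were 97 bases each and identical at 92 positions (94.8%), with the same 3 kinds of element in the same order. The B2m stretch of 70 bases carried the interferon element before the kappaB-like one. H2-K1, H2-D1 and B2m each held all 4 motifs in their windows, as did 0.706% of 32851 RefSeq promoter windows. Singly the motifs are common: 50.8% of windows held the kappaB-like letters, 23.9% the interferon element, 20.8% the CRE-like letters and 37.4% CCAAT. Among the other analysed members, Erap1 and Cd274 held only the interferon element, Cd47 only the CRE-like letters and Tapbp only CCAAT. These matches describe the letters in the windows and are not measured binding.

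Total counts ranged from 1519340 to 2358350 in shBrca2 and from 2043470 to 2452467 in shControl (exact permutation test, two-sided, p = 0.8, with 0.1 the smallest p that 3 against 3 libraries allow). Brca2 itself had a log2 fold change (shBrca2 over shControl throughout) of -1.61 ± 0.44 (SE, DESeq2 likelihood ratio test, adjusted p = 0.029), and all shBrca2 libraries were below all shControl libraries. This call was lost without shBrca2 replicate 2 (adjusted p = 0.152), shBrca2 replicate 3 (0.233) or shControl replicate 2 (0.371). The first principal component took 41.1% of the variance and did not separate the groups, while on the second (23.7%) the shBrca2 libraries lay at 4.53 to 17.7 and the shControl libraries at -31.7 to 3.16. Of 12 markers of ductal epithelium 11 were analysed here, with a summed level of 8290 to 8630 CPM (counts scaled to a common library total) in shBrca2 and 8624 to 9436 in shControl, though Epcam was at a normalised count of only 3.78 to 9.09. Among these markers Krt7 and Sox9 were called higher in shBrca2, with log2 fold changes of 1.21 and 1.2 (DESeq2 adjusted p = 2.07e-06 and 0.0391), and the part of this in the members' values was not tested. Of the markers of other cells, 1 of 18 for leukocytes (Cd68, 5.24 to 9.87 CPM over the 6 libraries), 3 of 12 for fibroblasts, 0 of 7 for endothelium and 2 of 10 for acinar cells were analysed here. In bulk libraries, fewer cells expressing a gene and less RNA of it per cell cannot be told apart.

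None of the 8 members passed the study's thresholds (adjusted p under 0.1, absolute log2 fold change over 0.5, base mean over 5), against 127 of 9997 genes tested (1.27%), of which 0.77% were higher and 0.5% lower in shBrca2. Of the genes with a base mean over 200, which include 6 of the members, 2.49% were called and the libraries of 23.9% did not overlap. The log2 fold changes of the members ran from -0.51 to 0.49, with 4 above and 4 below 0 and a median of 0.09, while the median of all genes was -0.00094. An unadjusted p under 0.05 was found for 2 of the 8, H2-K1 and Cd47, against 8.66% of all genes. The same 2 were the members whose libraries did not overlap between the groups, against 20.6% of all genes. The smallest adjusted p among the members was 0.288. No alternative fit called a member to which it gave an adjusted p, and edgeR's quasi-likelihood test, in which Cd274 had none, called 0 members and 0 genes of the 7 pathway lists given below. Values below are normalised read counts, that is counts divided by the library's size factor, and errors are SD with n = 3 unless named as SE. The 95% intervals are on the log2 scale.

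**Figure D1:**
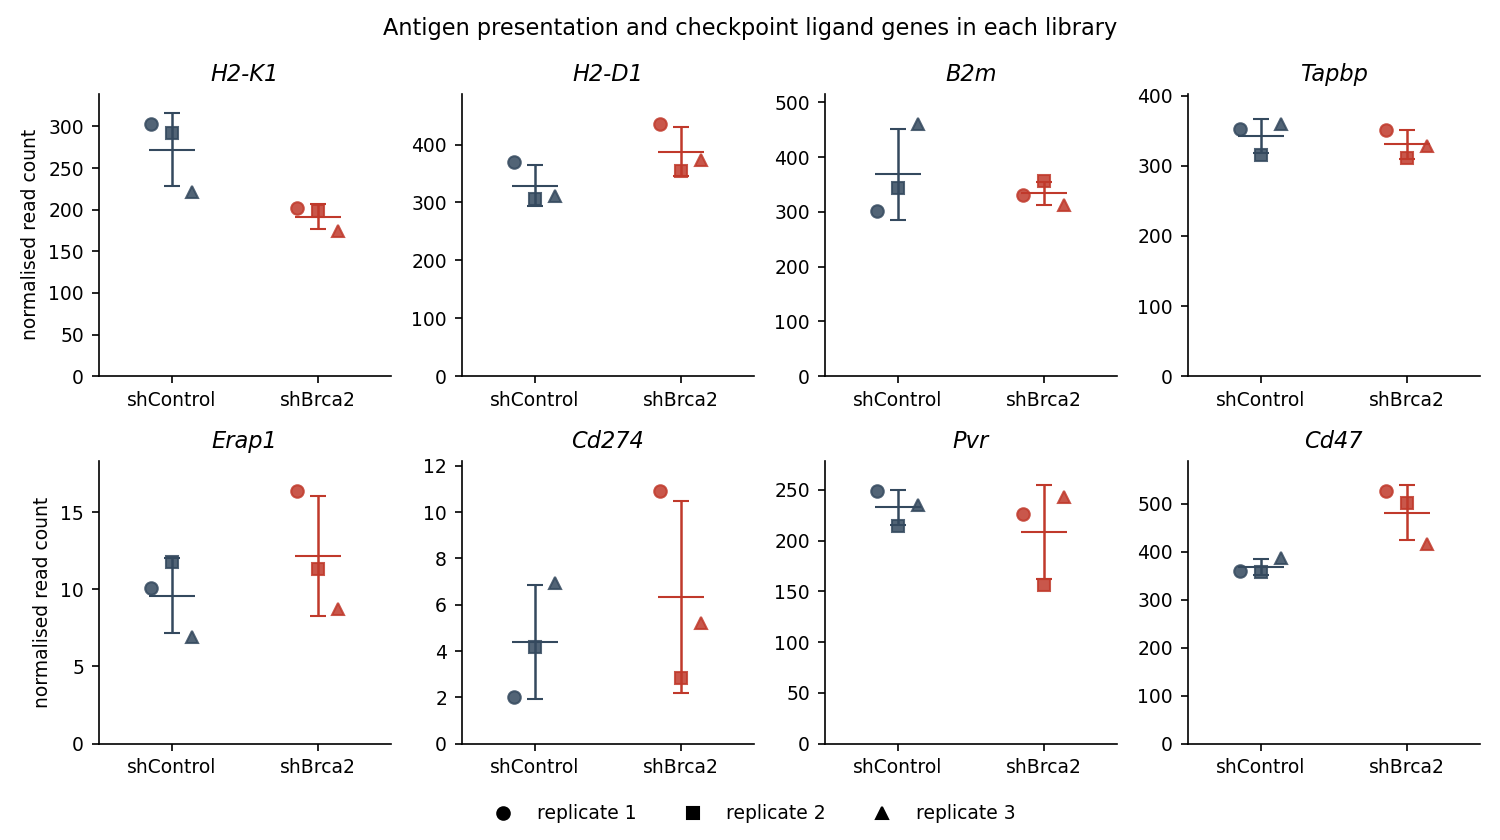
Normalised read counts (linear axis from 0) of the 8 members in 3 shControl and 3 shBrca2 libraries, with the mean and SD of each group as bars and a symbol for each replicate. For H2-K1 the shBrca2 points, 174 to 202, sit below the shControl points, 221 to 303, and for Cd47 they sit above, while the groups of the other 6 genes overlap.

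H2-K1 (chr17:33996012-34000619, minus strand, protein coding) encodes one of the classical class I heavy chains that present peptide to CD8+ T cells. Its normalised read counts were 202, 199 and 174 in shBrca2 replicates 1 to 3 and 303, 292 and 221 in shControl replicates 1 to 3. All 3 shBrca2 libraries lay below all 3 shControl libraries, with shControl replicate 3 nearest to them. The means were 191 ± 15.1 and 272 ± 44.2. The log2 fold change was -0.51 ± 0.19 (SE; 95% interval -0.89 to -0.13), with an unadjusted p of 0.0083 and an adjusted p of 0.288 (DESeq2 likelihood ratio test). Over all alternatives the log2 fold change stayed between -0.64 and -0.42 and the adjusted p between 0.131 and 0.92, so the difference was not called in any of them.

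H2-D1 (chr17:35263094-35267497, plus strand, protein coding), the other classical heavy chain examined, lies in the same gene complex. Its normalised read counts were 436, 354 and 373 in shBrca2 and 370, 305 and 311 in shControl. The groups overlapped, since shControl replicate 1 was above shBrca2 replicate 2. The log2 fold change was 0.24 ± 0.17 (SE; 95% interval -0.099 to 0.57; DESeq2 adjusted p = 0.8).

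Because these heavy chains lay on opposite sides of 0, the ratio of H2-K1 to H2-D1 counts was taken within each library, a comparison chosen after the values were seen. A ratio within a library needs no size factor. It was 0.463, 0.56 and 0.466 in shBrca2 and 0.82, 0.956 and 0.711 in shControl. Every shBrca2 ratio was below every shControl ratio. The mean log2 ratio was -1.02 ± 0.156 in shBrca2 and -0.28 ± 0.214 in shControl, a difference of -0.74. As the pair was chosen for its opposite signs, this difference is a description and carries no test. Leaving out each library in turn gave differences of -0.84 to -0.63. The longest transcripts of both genes have a GC content of 54.3%, and their last 500 bases were 56.5% identical in alignment. Of the 451 windows of 50 bases in the H2-K1 3' end, 2 also occur in H2-D1 and 43 of 451 windows of the H2-D1 3' end occur in other genes, Adsl and Kcnk4 among them.

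**Figure D2:**
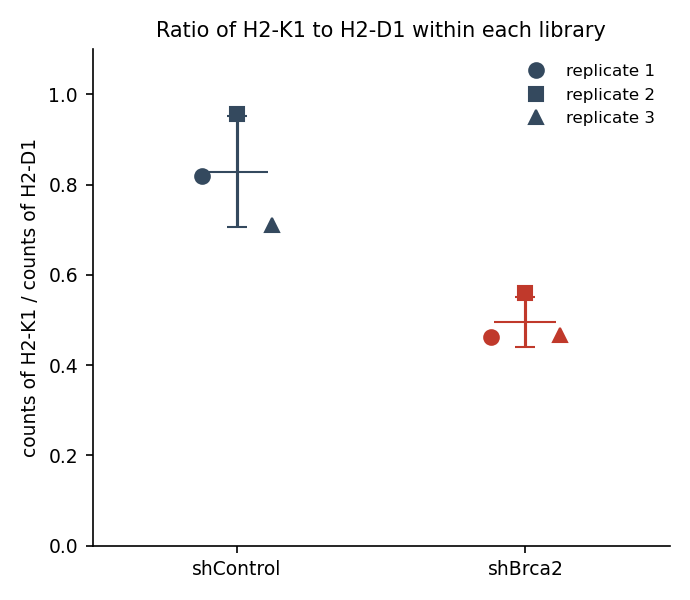
Ratio of H2-K1 to H2-D1 raw counts (no unit, linear axis from 0) in each library, with the group mean and SD as bars. The 3 shBrca2 libraries lie at 0.463 to 0.56 and the 3 shControl libraries at 0.711 to 0.956.

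Of 20 other class I and class I-like chains listed, 5 were analysed here, 4 of them with an adjusted p, and none passed the test. H2-T23, the mouse Qa-1 chain that presents signal peptides to NK and T cell receptors, had a log2 fold change of 0.41 ± 0.36 (SE, DESeq2 adjusted p = 0.867). H2-M3, which presents formylated peptides, had -0.47 ± 0.58 (SE, DESeq2 adjusted p = 0.925). Fcgrt, the neonatal Fc receptor, had 0.33 ± 0.54 (SE, DESeq2 adjusted p = 0.947). Summing H2-D1, H2-K1, H2-K2, H2-M3 and H2-T23 into 1 feature, which does not depend on how reads were divided among them, gave 710, 611 and 609 in shBrca2 and 719, 667 and 593 in shControl. The groups overlapped, and the log2 fold change of the sum was -0.039 ± 0.15 (SE; 95% interval -0.34 to 0.26; DESeq2 adjusted p = 0.988).

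B2m (chr2:122147687-122153082, plus strand, protein coding) encodes the light chain common to class I molecules. Its normalised read counts were 331, 356 and 313 in shBrca2 and 301, 344 and 461 in shControl. The groups overlapped, and shControl replicate 3 stood highest. The log2 fold change was -0.14 ± 0.19 (SE; 95% interval -0.51 to 0.23; DESeq2 adjusted p = 0.931), and without shControl replicate 3 its sign turned, to 0.045.

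Tapbp (chr17:33919478-33929290, plus strand, protein coding) encodes tapasin. Its normalised read counts were 351, 311 and 329 in shBrca2 and 353, 315 and 360 in shControl. The groups overlapped almost fully, and the log2 fold change was -0.053 ± 0.16 (SE; 95% interval -0.37 to 0.27; DESeq2 adjusted p = 0.985). Erap1 (chr13:74639573-74693205, plus strand, protein coding) was low, with raw counts of 12, 12 and 10 in shBrca2 and 10, 14 and 7 in shControl. Its log2 fold change was 0.31 ± 0.61 (SE, DESeq2 adjusted p = 0.965). The 95% interval was -0.89 to 1.51, or 0.539-fold to 2.85-fold, and at this depth the counts did not narrow the difference further.

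Of 19 other genes of peptide supply and loading, 17 were analysed here and none passed the test, with 9 above and 8 below 0 and a median log2 fold change of 0.04. The immunoproteasome subunits Psmb8 and Psmb9 were not analysed here. Calr, the chaperone calreticulin of the loading complex, had a log2 fold change of 0.09 ± 0.19 (SE, DESeq2 adjusted p = 0.966). Pdia3, the oxidoreductase that partners tapasin, had 586, 398 and 479 normalised counts in shBrca2 and 430, 340 and 356 in shControl. Its groups overlapped, with a log2 fold change of 0.37 ± 0.18 (SE, unadjusted p = 0.0423, DESeq2 adjusted p = 0.554). The proteasome activator subunits Psme1 and Psme3 had -0.27 ± 0.21 and -0.33 ± 0.19 (SE), and Sec61a1, a subunit of the translocon, had 0.22 ± 0.16 (SE). Of the 17 genes only Psme3 had libraries that did not overlap, in the lower direction, against 20.6% of all genes in either direction.

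Cd47 (chr16:49851328-49912503, plus strand, protein coding) had the smallest p of the 3 checkpoint ligands among the members. Its normalised read counts were 526, 501 and 417 in shBrca2 and 359, 358 and 388 in shControl. All 3 shBrca2 libraries were above all 3 shControl libraries, and shBrca2 replicate 3 came nearest to the controls. The means were 481 ± 57.1 and 368 ± 16.9. The log2 fold change was 0.38 ± 0.16 (SE; 95% interval 0.065 to 0.7), a 1.31-fold difference with an unadjusted p of 0.0185 and an adjusted p of 0.406 (DESeq2 likelihood ratio test). Leaving out each library in turn gave 0.32 to 0.48. On chromosome 16, which carries Cd47, the shBrca2 libraries of 16.1% of tested genes were all higher and those of 5.92% all lower. This share was looked up after seeing the data, and its part in the value of Cd47 was not tested. The longest Cd47 transcript has a GC content of 43.9%, and when each library's trend of counts on GC content was removed, an alternative chosen after seeing the data, the log2 fold change was 0.21 with an unadjusted p of 0.233. The adjusted p over all alternatives ran from 0.22 to 0.913.

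Cd274 (chr19:29362107-29388095, plus strand, protein coding), which encodes PD-L1, was near the lower limit of the table. Its raw counts were 8, 3 and 6 in shBrca2 and 2, 5 and 7 in shControl. The groups overlapped, and with a base mean of 5.35 the 95% interval of the log2 fold change ran from -1.27 to 2.24 around 0.49, or 0.415-fold to 4.73-fold. At this depth the counts did not narrow the difference further than this range. Pvr (chr7:19903578-19921143, minus strand, protein coding), the ligand of TIGIT and CD96, had normalised read counts of 226, 156 and 243 in shBrca2 and 249, 215 and 235 in shControl. Its groups overlapped, and shBrca2 replicate 2 stood lowest. The log2 fold change was -0.16 ± 0.21 (SE; 95% interval -0.56 to 0.24; DESeq2 adjusted p = 0.929), and without shBrca2 replicate 2 it was 0.012.

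**Figure D3:**
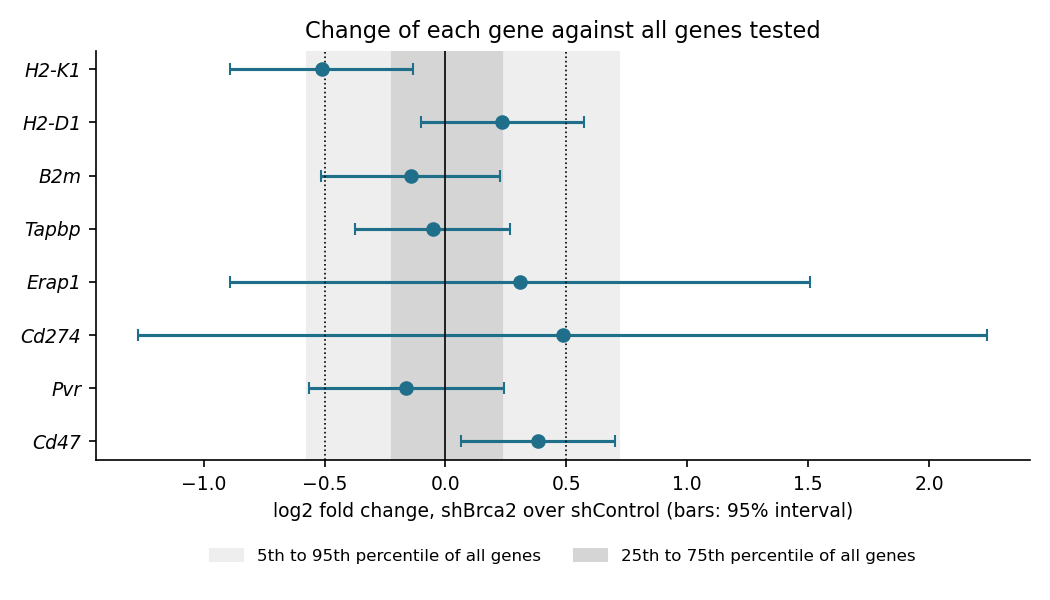
Log2 fold change (shBrca2 over shControl) of the 8 members with 95% intervals, over the middle 50% and middle 90% of all genes tested as shaded bands and the threshold of 0.5 in either direction as dotted lines. The intervals of H2-K1 and Cd47 do not reach 0, and those of Erap1 and Cd274 are the widest.

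Of 42 other checkpoint and immune ligands listed, 15 were analysed here, 14 of them with an adjusted p, and none passed the test. Of the 15, 10 were above and 5 below 0, with a median log2 fold change of 0.21. Lgals3, the galectin that binds LAG-3 among other glycoproteins, had normalised read counts of 6011, 5420 and 4834 in shBrca2 and 4353, 3806 and 4067 in shControl. All shBrca2 libraries were higher, with a log2 fold change of 0.41 ± 0.14 (SE, unadjusted p = 0.00289, DESeq2 adjusted p = 0.161). Its adjusted p ran from 0.0447 to 0.7 over the alternatives, and its log2 fold change stayed under the threshold of 0.5 in all of them, from 0.33 to 0.49. Lgals9, the galectin that binds TIM-3, had 0.16 ± 0.16 (SE, DESeq2 adjusted p = 0.892). Cd24a, whose human counterpart engages Siglec-10, had 449, 214 and 413 in shBrca2 and 449, 154 and 148 in shControl. The high value of shControl replicate 1 set its result: the log2 fold change was 0.52 ± 0.61 (SE, DESeq2 adjusted p = 0.919) with all libraries and 1.24 (DESeq2 adjusted p = 0.00315) without that library, which passed the thresholds. Clec2d, a lectin ligand of an inhibitory NK receptor, had 0.89 ± 0.46 (SE, unadjusted p = 0.0537, DESeq2 adjusted p = 0.589). Nectin2, which shares the receptor TIGIT with Pvr, had -0.25 ± 0.18 (SE, DESeq2 adjusted p = 0.794) and was named after its values were seen, as the ligand of this list whose shBrca2 libraries were all lower.

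Of 20 genes known to act on checkpoint ligand proteins after translation, 16 were analysed here, 8 above and 8 below 0, with a median log2 fold change of 0.0065, and none passed the test. Cops5, linked to PD-L1 stability, had a log2 fold change of -0.0023 ± 0.15 (SE, DESeq2 adjusted p = 0.991). Zdhhc9, a palmitoyltransferase, had 0.3 ± 0.18 (SE, DESeq2 adjusted p = 0.692), with all shBrca2 libraries higher. Otub1, a deubiquitinase, had -0.36 ± 0.3 (SE, DESeq2 adjusted p = 0.852).

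Of 38 regulators of class I genes and components of interferon receptor signalling, 32 were analysed here, 31 of them with an adjusted p. None passed the test, with 13 above and 19 below 0 and a median log2 fold change of -0.09 over the 32. Nlrc5, the class I transactivator, was not analysed here. An unadjusted p under 0.05 was found for 4 of the 32, against 8.66% of all genes. Relb, a subunit of the noncanonical NF-κB pathway, had 38.1, 52 and 42.6 in shBrca2 and 68.7, 72.1 and 96.9 in shControl. All its shBrca2 libraries were lower, with a log2 fold change of -0.83 ± 0.29 (SE, unadjusted p = 0.00454, DESeq2 adjusted p = 0.209). Nfkb2, which encodes the partner of RelB, had 255, 215 and 192 in shBrca2 and 272, 301 and 347 in shControl. Its libraries did not overlap either, with a log2 fold change of -0.48 ± 0.19 (SE, unadjusted p = 0.0105, DESeq2 adjusted p = 0.317). Rela, the main activating subunit of NF-κB, had -0.37 ± 0.18 (SE, unadjusted p = 0.0396, DESeq2 adjusted p = 0.539), with overlapping libraries. Nfkb1, the precursor of the p50 subunit and named after its values were seen, lay the other way, with 159, 205 and 165 in shBrca2 and 110, 153 and 141 in shControl. All its shBrca2 libraries were higher, and its log2 fold change was 0.39 ± 0.22 (SE, unadjusted p = 0.07, DESeq2 adjusted p = 0.64). With the GC trend removed the log2 fold changes were -0.72 for Relb, -0.32 for Nfkb2 and -0.18 for Rela.

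The 4 interferon receptor genes of the list and 3 receptor-bound kinases are also given, Ifngr1 by the rule and the others after their values were seen. Ifngr1 had 430, 436 and 471 in shBrca2 and 358, 330 and 411 in shControl, and its log2 fold change was 0.29 ± 0.16 (SE, unadjusted p = 0.0795, DESeq2 adjusted p = 0.665). Ifngr2 had 206, 233 and 193 in shBrca2 and 163, 156 and 171 in shControl, and its log2 fold change was 0.37 ± 0.19 (SE, unadjusted p = 0.0535, DESeq2 adjusted p = 0.589). Jak1, a kinase bound to interferon receptors, had a log2 fold change of 0.46 ± 0.19 (SE, unadjusted p = 0.0131, DESeq2 adjusted p = 0.343). In Ifngr1, Ifngr2 and Jak1 all shBrca2 libraries were above all shControl libraries. Ifnar1 and Ifnar2 had 0.45 ± 0.43 and 0.29 ± 0.24 (SE), and the kinases Jak2 and Tyk2 had -0.093 ± 0.22 and -0.093 ± 0.3 (SE), with overlapping groups in all 4. In the whole list 4 genes did not overlap in the higher and 4 in the lower direction, against 10.2% and 10.4% of all genes. The lower 4 included Nfya at -0.55 ± 0.35 (SE, DESeq2 adjusted p = 0.727) and Rfx5 at -0.42 ± 0.38 (SE, DESeq2 adjusted p = 0.875), both named after their values were seen.

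Of 59 interferon-stimulated genes, 22 were analysed here, 20 of them with an adjusted p, and none passed the test. None of the 22 had an unadjusted p under 0.05 by DESeq2, against 8.66% of all genes. The median log2 fold change of the 22 was -0.21, with 6 above and 16 below 0. Bst2, which encodes tetherin, had 117, 95.5 and 133 in shBrca2 and 153, 153 and 145 in shControl, without overlap, and a log2 fold change of -0.38 ± 0.22 (SE, unadjusted p = 0.077, DESeq2 adjusted p = 0.658). Irgm1, an interferon-inducible GTPase, had 0.5 ± 0.3 (SE, DESeq2 adjusted p = 0.702). The abundant Lgals3bp, Ifitm2 and Isg20 had -0.029 ± 0.18, -0.3 ± 0.2 and -0.16 ± 0.22 (SE). Single libraries weighed on the scarcer genes. Isg15, a ubiquitin-like modifier, was at 18.2 in shControl replicate 1 and at 1.98 to 5.67 in the other 5 libraries, and Ifitm3 was at 34.4 there against 5.93 to 11.3. The fibroblast markers Thy1 and Col1a2 were also highest in that library, at 20.2 and 22.2. Postn, the other fibroblast marker analysed, was at 3.03 there and at 2.61 to 5.93 in the other 5 libraries. The part of fibroblast markers in the values of Isg15 and Ifitm3 was not tested. These genes were named after their values were seen. Of 13 genes of MHC class II presentation, 2 were analysed here, H2-DMa at a base mean of 4.18 and the lysosomal thiol reductase Ifi30 with a log2 fold change of 0.04 ± 0.18 (SE, DESeq2 adjusted p = 0.988).

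**Figure D4:**
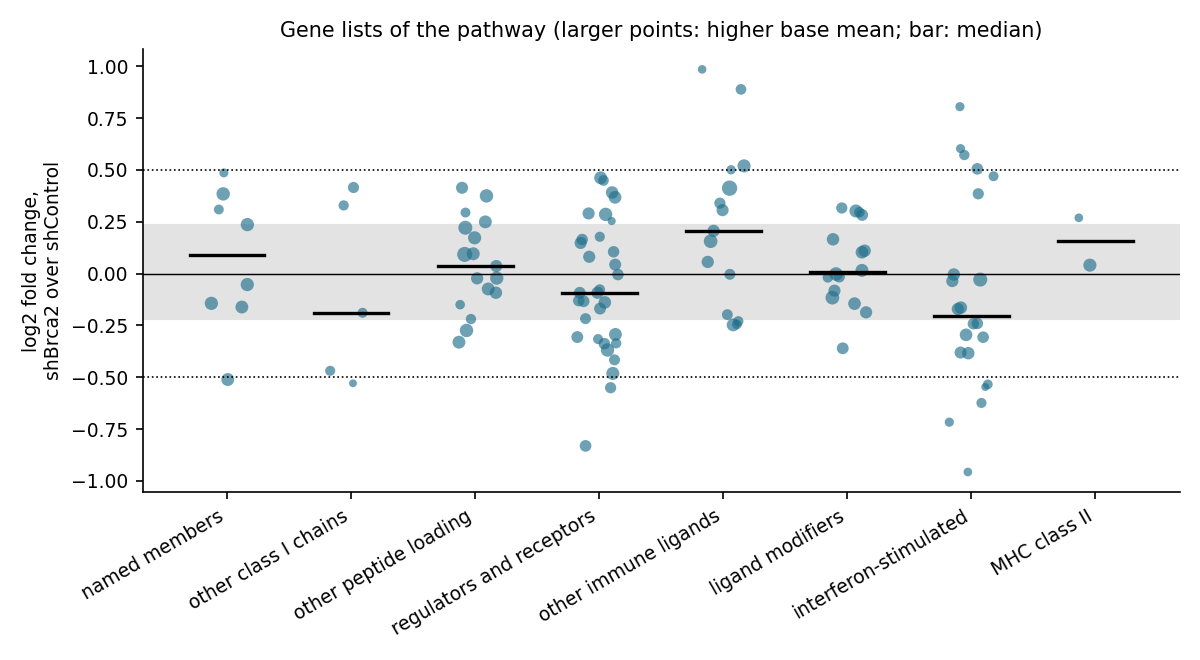
Log2 fold change (shBrca2 over shControl) of every analysed gene in the 8 lists, with larger points for a higher base mean, a bar at each list's median, the middle 50% of all genes as a band and the threshold of 0.5 as dotted lines. The medians of the lists run from -0.21 for interferon-stimulated genes to 0.21 for other immune ligands, and no gene shown passed the test.

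Tapbp, H2-K1 and H2-D1 lie in the major histocompatibility complex on chromosome 17, from 33919478 to 35267497 on GRCm38.p6, a stretch of 1348 kb. Of 132 genes annotated there, 55 were analysed and 52 had an adjusted p. Of these 52 genes, 39 (75%) were below 0 and the median log2 fold change was -0.22. The libraries of 18 (34.6%) did not overlap in the lower direction, against 10.4% of all genes, and those of 4 (7.69%) in the higher direction, against 10.2%. Without the members the other 49 genes also had a median of -0.22. A single gene was called, D17H6S56E-5, with 808, 785 and 896 in shBrca2 and 1423, 1395 and 1349 in shControl and a log2 fold change of -0.74 ± 0.14 (SE, DESeq2 adjusted p = 4.46e-05). It overlaps Vars1 on the opposite strand.

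The following comparisons of the stretch were chosen after seeing the data. The 52 genes before the stretch on the chromosome had a median of -0.059, the 52 after it -0.15 and the rest of chromosome 17 had -0.071. Libraries did not overlap in the lower direction for 11.5% of the genes before the stretch, 25% of those after it and 14% of the rest of the chromosome. Whole chromosomes also differed: of those compared, the medians ran from -0.086 on chromosome 4 to 0.36 on X, with chromosome 17 at -0.085. The transcripts of the stretch had a median GC content of 56.9%, against 49.7% over all genes. With the GC trend removed the median of the stretch was -0.057, that of the 52 genes before it -0.035, that of the 52 after it -0.12, that of the rest of the chromosome -0.035 and that of all genes -0.022. The genes after the stretch then had a lower median than the stretch itself, in which 33 of the 52 were below 0. The part of GC content in these values was not tested further. H2-K1 was then at -0.42 (unadjusted p = 0.0304, DESeq2 adjusted p = 0.464), H2-D1 at 0.33 and Tapbp at 0.09, while D17H6S56E-5 was at -0.84 and still called.

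**Figure D5:**
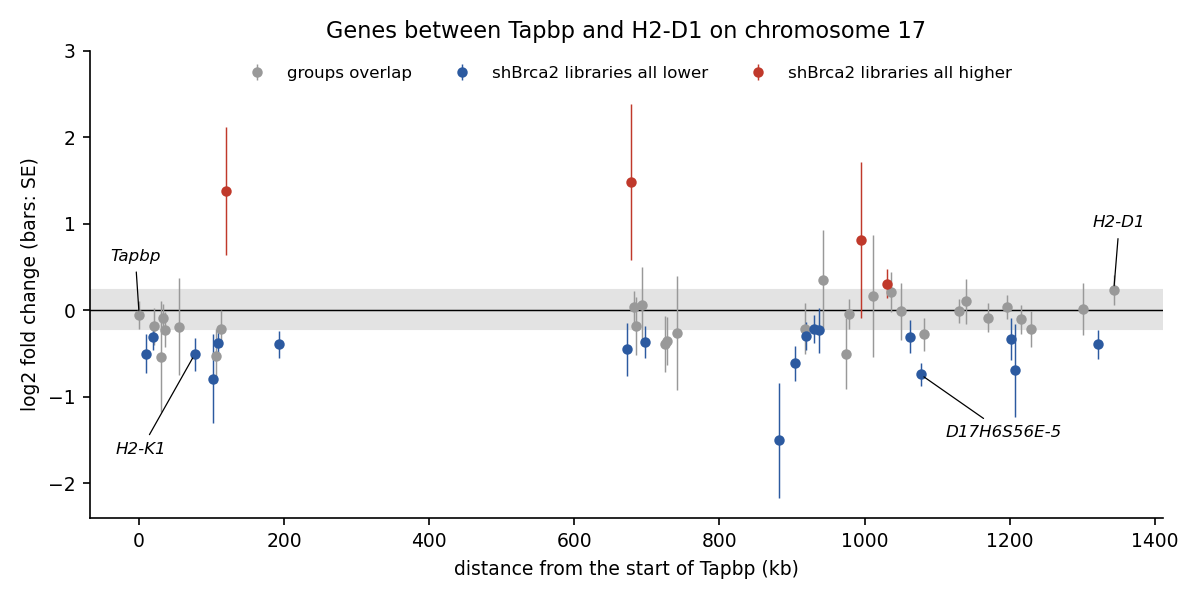
Log2 fold change with SE of the 52 tested genes from Tapbp to H2-D1 against distance from the start of Tapbp in kb, coloured by whether the shBrca2 libraries were all lower, all higher or overlapping with shControl, with the middle 50% of all genes as a band. Of these genes 18 were all lower and 4 all higher, and the called gene D17H6S56E-5 is marked.

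Counts of several members could include reads of neighbours, since the sources used here do not say whether counting used strand. In GENCODE vM39, B2m overlaps Patl2, Erap1 overlaps Cast and Cd274 overlaps Plgrkt on the opposite strand, and Tapbp overlaps Zbtb22 on its own strand. H2-K1, H2-D1 and Cd47 overlap noncoding genes only, and Pvr overlaps a noncoding gene and a processed pseudogene. In the last 500 transcript bases, no window of 50 bases of B2m, Tapbp, Erap1, Cd274, Pvr or Cd47 occurred in another gene's transcripts. That search read transcripts in their own sense only, so it could not detect reads of Patl2, Cast, Plgrkt or other neighbours on the opposite strand.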

How the data were processed

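The authors deposited 1 table of unnormalized counts for 6 libraries, keyed by gene symbol, with no replicates pooled. The submitters' processing notes name bcl2fastq, cutadapt, STAR 2.4.2a, HTSeq, DESeq2 and build mm10, with no roles or settings. Whether molecular identifiers were collapsed is not given in the sources used here, so errors from counts cover counting error at best. The 10616 genes each reach 6 counts in some library, which limits what can be said of low genes. Groups came from the source name. The labels do not say whether a group's libraries are separate cultures, so p-values measure only the spread between these libraries, which may be technical, and no batch is labelled.

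Differential expression was fitted on the whole table with DESeq2 1.42.0 in R 4.3.3 (likelihood ratio test of group, median-of-ratios size factors, Benjamini-Hochberg over 9997 genes past the filter at a base mean of 4.64), with the study's thresholds. Fold changes were not shrunken. Alternatives were edgeR 4.0.16 (quasi-likelihood, TMM), the Wald test, other size factors, filters and thresholds, each library left out and, chosen after seeing the data, a loess correction (span 0.5) of every library for the GC content of the longest transcript. The code was tested on simulated data. The members and gene lists were chosen with earlier results of these data known. Named genes were the members, Brca2, and from each other list the called genes, the 3 with the highest base mean and the 2 with the smallest p; from the chromosome 17 stretch, the called gene. A gene this rule names is not reported here. Other names are marked as chosen after seeing values. Positions and promoters came from RefSeq on GRCm38.p6, the assembly that mm10 names, and overlaps, GC content and 3' ends from GENCODE vM39 on GRCm39.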

Additional observations from a re-analysis of the deposited data

How the results depend on the processing

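The count of 0 called members held under the 10 alternatives that kept all 6 libraries and the 6 that left out 1. It covers only the members each could test. Alternatives that changed only the thresholds reused the main fit. Its smallest member adjusted p was 0.288, so they could not have called a member. Cd274 had an adjusted p in only 4 of the alternatives and in none that left out a library, and Erap1 in 10. In those 4, Cd274 kept the main fit's log2 fold change of 0.49 and unadjusted p of 0.587 (DESeq2 likelihood ratio test), so no refit gave it an adjusted p. Over all genes the alternatives with every library called 94 to 131 genes against 127, and leaving out 1 library gave 47 to 140, with the lowest counts when shBrca2 replicate 3 (47), shControl replicate 2 (55) or shBrca2 replicate 1 (81) was dropped. The other immune ligands went from 0 to 1 called without shControl replicate 1 (Cd24a), so the counts over that list ranged from 0 to 1. Of 542 comparisons of a named gene with an alternative, 522 kept direction and side of the threshold, 3 lost the call (Brca2), 1 gained it and 16 reversed, and 50 gave no adjusted p. In the alternatives that reused the main fit, direction could not change. Cops5 turned to 0.0030 under edgeR and 0.0031 with at least 10 counts in 3 libraries. With the GC trend removed, Tapbp turned to 0.086 and Lgals3bp to 0.088. Leaving out 1 library gave -0.050 to 0.064 for Cops5, -0.16 to 0.11 for Lgals3bp, -0.030 to 0.13 for Ifi30, -0.060 to 0.33 for Calr, -0.27 to 0.045 for B2m, -0.29 to 0.012 for Pvr, and -0.11 to 0.026 for the summed class I chains. The cause was not tested. Another scaling gave a median shift in log2 fold change over all genes of 0.00099 (TMM factors) or -0.00028 (total counts). The median log2 fold change of the genes with an adjusted p was -0.014 and -0.012 in these fits, against -0.00094 in the main fit. No paired analysis was possible because no replicate number in the labels ties a shBrca2 library to a shControl library. At this depth Erap1 and Cd274 could not be compared closely: without single libraries the fitted log2 fold change of Cd274 ran from -0.12 to 0.96.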
